A study of Mus musculus with 31 samples.

Results

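The genes described here are 34 genes for subunits of glutamate and GABA receptors, of 21887 protein-coding genes in the RefSeq annotation of the mouse assembly mm10. They were chosen by symbol and fall into 7 classes: 4 AMPA, 6 NMDA, 5 kainate and 1 delta receptor subunit, 6 metabotropic glutamate receptors, 10 GABA-A subunits and 2 GABA-B subunits. The rule for choosing them uses no measured value, but they were chosen with earlier results of these data known. A peak was counted for a gene when it lay inside the gene or within 2 kb of either end, so a peak can be counted for a receptor gene and also for its neighbour.

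The study measured trimethylation (H3K4me3) and monomethylation (H3K4me1) of lysine 4 of histone H3 by ChIP-seq in whole hippocampus of C57BL6 mice, 30 days old. Mice were wild type, KMT2D+/+, or KMT2D+/bGeo heterozygotes, in which an insertion interrupts 1 copy of the gene for the H3K4 methyltransferase KMT2D. From 2 weeks of age, for 2 weeks, mice of both genotypes were given by oral gavage either TAK-418, an inhibitor of the H3K4 demethylase LSD1, at 1 mg/kg/day in methylcellulose, or methylcellulose alone as vehicle. There were 4 mice in each of the 4 groups, 16 in all, with 1 H3K4me3 library each and 15 H3K4me1 libraries. The sources used here do not give the sex of the mice. The tissue holds neurons and glia together, so less mark per cell and fewer cells with the mark cannot be told apart.

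Glutamate excites neurons through ion channels of the AMPA, NMDA and kainate families. It adjusts the signalling of neurons through metabotropic receptors, which act by way of G proteins. GABA inhibits them through GABA-A receptors, which are chloride channels, and GABA-B receptors, which act by way of G proteins. H3K4me3 sits around the starts of transcribed genes, in most cases over stretches of DNA rich in the dinucleotide CG, and many receptor genes are transcribed from more than 1 start.

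The H3K4me3 peak lists differed far more in length between libraries than between groups. In each group 1 library, with an index taken to belong to sets 1 and 2 of the kit from its sequence, had a long list of 13343 to 16750 peaks, and the other 3, with an index of sets 3 and 4, had short lists of 302 to 2281 peaks. The long lists were those of replicate 3 of wild type vehicle, replicate 2 of heterozygote vehicle, replicate 3 of wild type TAK-418 and replicate 3 of heterozygote TAK-418. The files with the peaks hold no read counts, so depth is unknown. In the long lists 9 to 10 of 10 excitatory neuron marker genes had a peak, 4 to 7 of 10 inhibitory neuron markers, 2 to 6 of 8 astrocyte, 4 to 6 of 8 oligodendrocyte, 0 to 4 of 8 microglia, 2 to 4 of 6 vascular and 0 to 1 of 4 blood markers. With 1 long list per group, long lists could not be compared between groups with a test.

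Nearly all receptor genes carried H3K4me3 in the long lists. The receptor genes with a peak numbered 30 of 34 in wild type vehicle, 31 in heterozygote vehicle, 32 in wild type TAK-418 and 32 in heterozygote TAK-418, or 88.2% to 94.1%. Of all protein-coding genes, 58.9% to 64.3% had a peak in the same lists. Since long genes offer more room for a peak inside, the count was repeated with gene ends only, and 29 to 32 receptor genes had a peak there, against 55.1% to 60.1% of all genes. In all, 29 receptor genes had a peak in each of the 4 long lists, 3 had one in 3 of them and 2 had none.

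**Figure D1:**
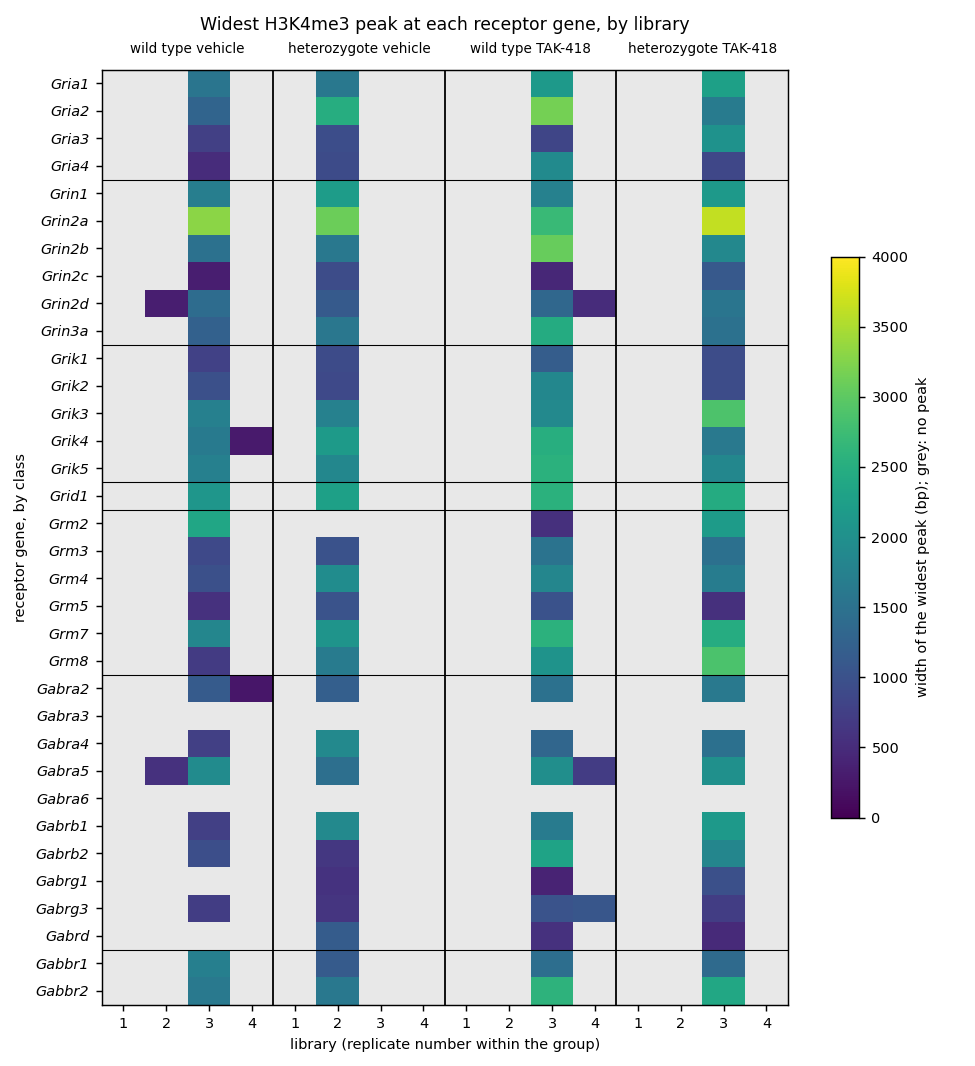
Width in bp (colour) of the widest H3K4me3 peak at each of the 34 receptor genes (rows, with lines between the classes) in each of the 16 libraries (columns, grouped by genotype and treatment); grey cells have no peak. The 4 filled columns are the libraries with long lists, 1 per group, and 3 of the other 12 libraries hold 7 peaks in all.

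The pair with no peak in any of the 16 libraries was Gabra3 and Gabra6, both subunits of the GABA-A receptor that help to form the GABA binding site; Gabra6 is best known from cerebellar granule cells. Grm2, which encodes a receptor that lowers glutamate release, had no peak in the long list of heterozygote vehicle. Gabrg1 and Gabrd, a gamma and a delta subunit of GABA-A receptors, had none in the long list of wild type vehicle, which was the shortest of the 4. In the short lists, 9 of 12 libraries had no peak at any receptor gene, among them all 6 of heterozygotes. Those 9 lists had a peak at 0.356% to 1.11% of all genes, so a count of 0 of 34 is near the share over all genes. The other 3 were from wild types: replicate 4 of TAK-418 with peaks at 3 receptor genes, and replicates 2 and 4 of vehicle with peaks at 2 each, beside 6.73%, 9.98% and 3.38% of all genes. Of those 7 peaks, 1, at Gabra2, lay within 2 kb of a listed start. The Grin2d peaks, of 501 bp in wild type TAK-418 replicate 4 and 343 bp in wild type vehicle replicate 2, lay outside Grin2d at the end of Kdelr1. The Gabra5 peaks, of 714 and 574 bp in the same libraries, lay at an end that Gabra5 shares with a neighbouring gene. Those at Grik4 (292 bp, wild type vehicle replicate 4) and Gabrg3 (1078 bp, wild type TAK-418 replicate 4) were inside the gene and away from its ends, and the Gabra2 peak (244 bp, wild type vehicle replicate 4) lay 442 bp inside the start.

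Promoter sequence was taken from RefSeq (GRCm38.p6, the assembly mm10), which lists 31 promoters for 24 of the 34 receptor genes. The sequences below are the 250 bases before a listed start, 5′ to 3′ on the gene's strand, with each CG in capitals. The first 3 were chosen because a region of the authors' differential lists lay within the peak at the listed start, and each was under a peak in all 4 long lists; the last belongs to Gabra6, which had no peak.
Gabbr1 (chr17:37045716-37045965, plus strand, 16 CG): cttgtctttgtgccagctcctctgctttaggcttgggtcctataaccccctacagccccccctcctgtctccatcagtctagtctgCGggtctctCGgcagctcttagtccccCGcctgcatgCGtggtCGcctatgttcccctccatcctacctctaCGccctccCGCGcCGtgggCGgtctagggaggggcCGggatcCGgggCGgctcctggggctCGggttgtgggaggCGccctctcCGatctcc
Grin2d (chr7:45866682-45866931, minus strand, 9 CG): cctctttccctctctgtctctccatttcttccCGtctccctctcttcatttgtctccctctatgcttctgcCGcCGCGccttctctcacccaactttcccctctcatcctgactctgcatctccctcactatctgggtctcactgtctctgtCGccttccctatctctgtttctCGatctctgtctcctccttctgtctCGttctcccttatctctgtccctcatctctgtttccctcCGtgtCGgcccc
Grik5 (chr7:25072370-25072619, minus strand, 8 CG): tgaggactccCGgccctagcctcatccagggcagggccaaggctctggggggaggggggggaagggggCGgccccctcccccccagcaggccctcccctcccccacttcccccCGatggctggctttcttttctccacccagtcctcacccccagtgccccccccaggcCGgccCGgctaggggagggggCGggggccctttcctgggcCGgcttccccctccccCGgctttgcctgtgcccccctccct
Gabra6 (chr11:42321073-42321322, minus strand, 2 CG): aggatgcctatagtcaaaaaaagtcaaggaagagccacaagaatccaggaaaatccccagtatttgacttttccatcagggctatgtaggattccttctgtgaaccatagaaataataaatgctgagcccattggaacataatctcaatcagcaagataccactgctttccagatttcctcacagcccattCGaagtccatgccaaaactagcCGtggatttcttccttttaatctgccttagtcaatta

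The Grin2d and Grik5 promoters have few CG for promoters with a peak. Of all 21263 listed promoters, the 36.4% that were under a peak in all 4 long lists had a median of 20 CG, and the 42.7% under a peak in none had a median of 2. Of the 31 receptor promoters, 16 (51.6%) were under a peak in all 4 lists, with a median of 12.5 CG and a range from 8 to 42, and 5 (16.1%) were under none, with a median of 2 and a range from 0 to 15. Those 5 were both promoters of Gabra3 with 0 CG each, that of Gabra6, 1 of the 3 promoters of Grm8 with 2 CG, and that of Grin2c with 15 CG. The receptor promoter with the most CG was that of Grik3, a kainate receptor gene, with 42. The letters GGGCGG, searched on both strands, were found in 15 of the 31 receptor promoters (48.4%) and in 42.6% of all promoters of that length. The letters TATAAA in the last 50 bases, searched on the gene's strand, were found in 1 (3.23%) and in 3.17%.

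Among genes with a peak, receptor genes had wide and rather low peaks. The median width of the widest peak per receptor gene was 1264 bp in wild type vehicle, 1582 bp in heterozygote vehicle, 1843.5 bp in wild type TAK-418 and 1677 bp in heterozygote TAK-418. Over all genes with a peak the medians were 957, 1006, 1155 and 1143 bp. The receptor genes wider than the all-gene median were 19 of 30, 23 of 31, 25 of 32 and 24 of 32. Not every class was wide in every list. In wild type vehicle the GABA-A and metabotropic medians, 855 and 929.5 bp, lay below that of all genes, while in every other long list they lay above it. The deposited fold enrichment, a ratio of signal to the local background, went the other way: the median of the highest fold per receptor gene was 5.08, 4.06, 5.57 and 5.39, against 5.55, 4.36, 6.42 and 6.21 over all genes, and 13, 11, 7 and 7 receptor genes were above the all-gene median. These are descriptions of single libraries, with no replicate check.

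**Figure D2:**
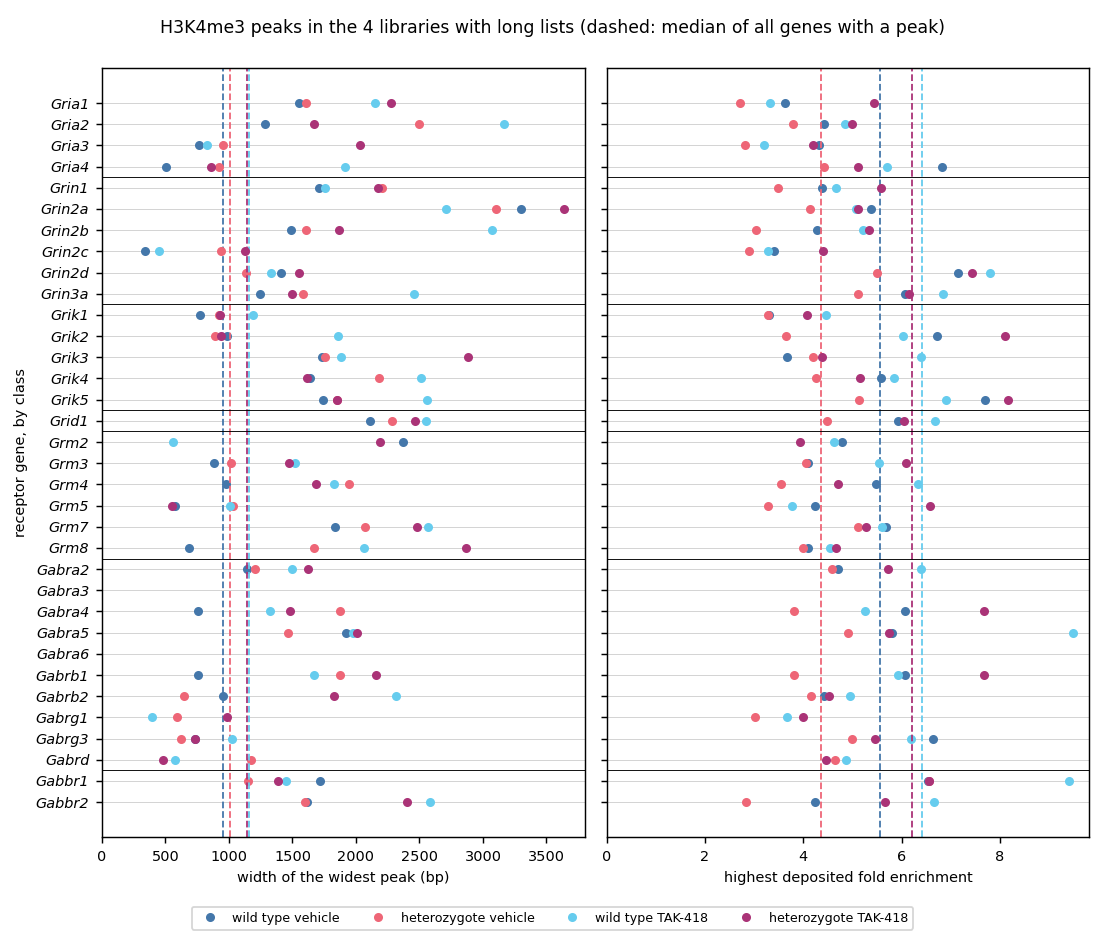
Width in bp of the widest peak (left) and highest deposited fold enrichment (right) of each receptor gene in the 4 long lists, 1 per group (colours), with dashed lines at the median of all genes with a peak. The widths of most receptor genes lie to the right of the dashed lines and their folds to the left.

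The AMPA receptor genes Gria1 to Gria4, whose products carry most fast excitatory transmission, had a peak in every long list. Gria2, whose product makes the channel resistant to calcium, had the widest peaks of the class on average, with 1285 bp in wild type vehicle, 2497 bp in heterozygote vehicle, 3167 bp in wild type TAK-418 and 1671 bp in heterozygote TAK-418. Gria4 had the narrowest, with 501, 920, 1916 and 857 bp in that order. The SD over the 4 lists was 843.1 bp for Gria2 and 607 bp for Gria4, with means of 2155 and 1048.5 bp, and their ranges overlapped. The class had low folds: the median over its 4 genes was 3.3 to 5.05 per list, below the all-gene median of every list. The fold medians of the NMDA and metabotropic classes also lay below it in every long list.

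The NMDA receptor genes, for channels that need both glutamate and depolarization to open, held the widest receptor peak. Grin2a, the GluN2A subunit that gains in share as the forebrain matures, had peaks of 3301 bp in wild type vehicle, 3100 bp in heterozygote vehicle, 2709 bp in wild type TAK-418 and 3636 bp in heterozygote TAK-418. Its mean width of 3186.5 ± 387.6 bp (SD over the 4 long lists, 1 per group) was on average at percentile 97.2 of all genes with a peak in the same list. Grin1, which encodes the subunit that all NMDA receptors hold, had 1712, 2205, 1759 and 2170 bp. Grin2b, the GluN2B subunit that dominates early in development, had 1486, 1606, 3070 and 1870 bp. All 4 values of Grin2a lay above all 4 of Grin1, while those of Grin1 and Grin2b overlapped.

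Grin2c, a subunit typical of the cerebellum, had the narrowest peaks of the class, with 339, 936, 447 and 1123 bp. They were hard to assign: the peaks of wild type vehicle, heterozygote vehicle and heterozygote TAK-418 lay at the end that Grin2c shares with Fdxr, and that of wild type TAK-418 lay only near the opposite end. Grin2d, the GluN2D subunit known from early development and interneurons, had 3 sites with a peak in every long list. The site at its RefSeq-listed start measured 1408 bp in wild type vehicle, 641 bp in heterozygote vehicle, 878 bp in wild type TAK-418 and 1555 bp in heterozygote TAK-418. The other 2 sites lay at the ends of Kdelr1 and Grwd1, within 2 kb of Grin2d but outside it.

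The kainate receptor genes Grik1 to Grik5 all had a peak in every long list, with class medians of 1614 to 1879 bp. Grik3 was the widest on average, with 1735 bp in wild type vehicle, 1753 bp in heterozygote vehicle, 1879 bp in wild type TAK-418 and 2883 bp in heterozygote TAK-418. Grik1 was the narrowest, with 773, 918, 1187 and 929 bp, all below those of Grik3. Grik5, an auxiliary subunit that needs a partner to form a channel, had 1742, 1849, 2557 and 1853 bp at its listed start, and its highest folds, 5.13 to 8.17, came from a second site at the end of Zfp574. Grik2 and Grik4 also had 2 sites each in all 4 lists: in Grik2 0.743 to 2.32 kb and 6.4 to 8.26 kb from the 5′ end of the gene, in Grik4 at the 5′ end and 46.7 to 47.8 kb into the gene. Grid1, the delta receptor gene, whose product binds cerebellin proteins at synapses, had evenly wide peaks of 2107, 2281, 2548 and 2461 bp, with a mean of 2349.2 ± 196.1 bp (SD over the 4 long lists).

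The metabotropic glutamate receptor genes spanned a wide range. Grm7, for a presynaptic receptor of low affinity, had 1838 bp in wild type vehicle, 2075 bp in heterozygote vehicle, 2564 bp in wild type TAK-418 and 2479 bp in heterozygote TAK-418. Grm5, for a postsynaptic receptor that releases calcium from stores, had the narrowest peaks of the class on average, with 576, 1031, 1007 and 551 bp, none as wide as the narrowest of Grm7. Grm2 measured 2370, 561 and 2193 bp in the 3 lists that had it, and in wild type TAK-418 its site was split into peaks of 426 and 561 bp. The widest range between long lists was that of Grm8, with 688, 1667, 2062 and 2863 bp. Grm3 and Grm4 had mean widths of 1221 and 1609.5 bp.

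The GABA-A receptor genes were the class with the fewest peaks: 6 of 10 in wild type vehicle and 8 of 10 in the other long lists. Gabra5, an alpha subunit of receptors outside the synapse that is abundant in the hippocampus, was the widest on average, with 1924 bp in wild type vehicle, 1468 bp in heterozygote vehicle, 1977 bp in wild type TAK-418 and 2007 bp in heterozygote TAK-418. Those widths belong to the shared end; at its listed start, 80.8 to 82.2 kb into the gene, the peaks measured 1218, 475, 1130 and 1138 bp. Gabrg1 was the narrowest, with 590 bp in heterozygote vehicle, 396 bp in wild type TAK-418 and 982 bp in heterozygote TAK-418. These were not the same site: the 396 bp peak lay 80 kb into the gene. The peaks of 590 and 982 bp lay at or near the listed start and did not overlap each other. Gabra4 and Gabrb1 overlap at their 5′ ends, read in opposite directions, and share the peak at chr5:71656675-71658615, so its value counts for both. Gabrb1 had a second listed start with a peak, 41.5 to 43.9 kb into the gene. Gabra2, the main alpha subunit of many forebrain synapses, had 1143, 1204, 1493 and 1620 bp, and Gabrg3 731, 622, 1027 and 734 bp.

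Both GABA-B receptor genes had a peak in every long list. Gabbr1, whose product binds GABA, had 2 sites, at its 5′ end and 3.75 to 5.67 kb downstream; the gene is known to be transcribed from alternative promoters that give isoforms of different place in the synapse. The 5′ site measured 1719 bp in wild type vehicle, 1150 bp in heterozygote vehicle, 1449 bp in wild type TAK-418 and 1372 bp in heterozygote TAK-418, and the inner site 1705, 517, 1132 and 1385 bp. At both sites the peak was widest in wild type vehicle and narrowest in heterozygote vehicle, each a single library. Its mean highest fold, 7.26, was the highest of the 34. Gabbr2, whose product couples to the G protein, had peaks of 1618, 1599, 2583 and 2399 bp with a lower mean fold of 4.85. They were wider than those at either Gabbr1 site except in wild type vehicle, where they were narrower than both.

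**Figure D3:**
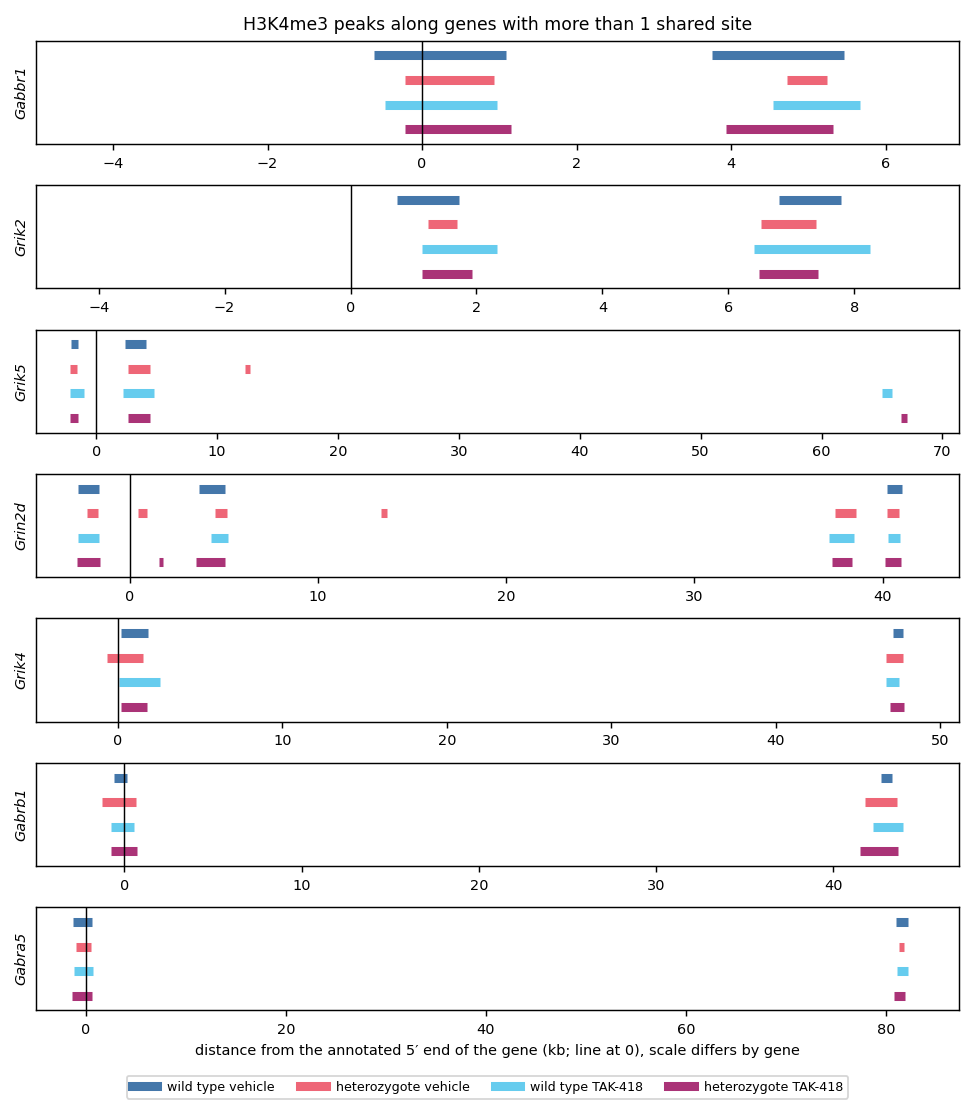
H3K4me3 peaks (bars, drawn to scale) along the 7 receptor genes that had at least 2 sites with a peak in all 4 long lists, by distance in kb from the annotated 5′ end of the gene, with 1 row per library; of 71 peaks, 2 that lie beyond 100 kb are not drawn. The sites of Gabbr1 lie within 6 kb of the start, while the second sites of Grik4, Gabrb1 and Gabra5 lie over 40 kb into the gene.

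The 192 distinct peaks at receptor genes in the long lists merged into 73 distinct sites, of which 35 had a peak in all 4 lists and 30 in only 1. Single peaks at sites found in all 4 lists had a median width of 1478 bp and those at sites found in 1 list a median of 401.5 bp. Of the 24 receptor genes with a listed start, 19 had a peak within 2 kb of one in all 4 lists. Of the 192 peaks, 28 lay within 2 kb of an end of another gene. Over the 29 genes with a peak in all 4 lists, Spearman's rho between pairs of lists was 0.57 to 0.65 for width and 0.36 to 0.73 for fold; the points share gene length and sequence. Of these genes, 14 were widest in wild type TAK-418, 10 in heterozygote TAK-418, 4 in heterozygote vehicle and 1 in wild type vehicle. The median width over all genes with a peak fell in the same order: 1155, 1143, 1006 and 957 bp. The fold was lowest in heterozygote vehicle for 27 of the 29, and the median over all genes was lowest in that list too.

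How many libraries had a peak was compared between groups for each gene. Fisher's exact test per gene (two-sided, adjusted by Benjamini-Hochberg over 12259 to 12735 genes) called 0 genes in each of the 4 comparisons, 0.0% of those tested, and at an unadjusted p of 0.05 or less 1 gene for the genotype comparison under vehicle, 1 for treated heterozygotes against untreated wild types and 0 for TAK-418 in either genotype. The 29 to 31 receptor genes tested per comparison had an exact p of 1. With 4 libraries against 4 and that many genes, a single gene could not pass whatever its pattern, since the smallest p is 0.029.

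The authors' deposited lists of differential H3K4me3 regions, chosen at an authors' −log10 p of at least 1.3, give a score per library for each region, without the library's name. The genotype comparison under vehicle held no receptor gene: 0 of 34 had a lower and 0 a higher region in heterozygotes, against 7.9% and 0.443% of all genes. TAK-418 in heterozygotes held 1 receptor gene with a lower region, Gabbr1, and 0 with a higher one, against 2.39% and 2.85% of all genes. TAK-418 in wild types held 2 with a lower region, Grid1 and Gabra5, and 2 with a higher one, Grin2d and Grik5, against 4.95% and 6.84%. The list of treated heterozygotes against wild type vehicle held 3 with a lower region, Gabbr1, Grin2d and Gabra5, and 0 with a higher one, against 10.1% and 1.09%. With 34 genes these counts are near the share over all genes. The 3 comparisons with wild type vehicle share its 4 libraries, and heterozygote vehicle and heterozygote TAK-418 each enter 2 comparisons.

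No receptor region passed a test over replicates. The limma test on log2(score + 1), adjusted by Benjamini-Hochberg over all regions of a list, called 0 of 2015 regions for heterozygote against wild type vehicle (0.0%; 82 at an unadjusted p of 0.05 or less), 0 of 1715 for TAK-418 in heterozygotes (0.0%; 17), 0 of 2780 for TAK-418 in wild types (0.0%; 66) and 8 of 2722 for treated heterozygotes against wild type vehicle (0.294%; 174). None of those 8 lay at a receptor gene. The scores of both groups overlapped at all 8 receptor regions; they did not overlap at 2.03%, 0.35%, 0.54% and 0.404% of the regions of the 4 lists in that order. The exact permutation test of the mean scores, two-sided, can give no p below 0.029 with 4 libraries against 4.

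At Gabbr1, the region chr17:37046201-37046800 starts 235 bp inside the gene, within the 5′ site and just downstream of the promoter printed above. In the list for TAK-418 in heterozygotes its scores were 89, 241, 92 and 123 with vehicle and 16, 54, 219 and 37 with TAK-418. The means were 136.2 ± 71.5 and 81.5 ± 93 (SD, n = 4 each), a ratio of 0.598 (exact permutation p = 0.4; limma log2 difference -1.25 ± 0.89 SE, adjusted p = 0.691). In treated heterozygotes 3 of 4 scores lay below all 4 of vehicle, and the third, 219, lay among the highest. In the list against wild type vehicle the scores of the same region were 82, 133, 262 and 120 for wild type vehicle and 16, 66, 235 and 37 for treated heterozygotes. Of the 4 treated scores, from the same treated libraries as in the first list, 3 lay below every control score. Without the third treated score the groups did not overlap, as at 35.1% of that list's regions. The means were 149.2 ± 78.2 and 88.5 ± 99.8 (SD, n = 4 each), a ratio of 0.593 (exact permutation p = 0.371, limma adjusted p = 0.613).

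In each group 1 place among the 4 scores was most often the highest: the third in wild type vehicle (58.3% to 65.5% of the regions of a list), wild type TAK-418 (76.9%) and heterozygote TAK-418 (52.5% and 75.8%), and the second in heterozygote vehicle (46.5% and 64.5%). These places equal the replicate numbers of the 4 libraries with long lists. Whether the scores stand in that order is not stated, so no score was assigned to a library. As an alternative chosen after the data were seen, the score at that place was left out of both groups, or the place was entered in limma as a batch term.

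With that place left out of both groups at Gabbr1, the 3 treated scores lay below the 3 vehicle scores in heterozygotes (ratio 0.352) and below the 3 of wild type vehicle (ratio 0.355). Each had an exact permutation p of 0.1, below which 3 scores against 3 cannot go, and 21.5% and 36.1% of all regions of those lists were likewise without overlap. At the place itself the scores were 241 and 219 in heterozygotes, a ratio of 0.909, and 262 and 235 against wild type vehicle, a ratio of 0.897. With the batch term the limma log2 differences were -1.25 ± 0.53 and -1.28 ± 0.54 (SE), with adjusted p = 0.327 and 0.242. With a single score left out, the ratio in heterozygotes ran from 0.262 without the third treated score (exact permutation p = 0.0857) to 0.804 without the second vehicle score (exact permutation p = 0.83). Against wild type vehicle it ran from 0.266 without the third treated score (exact permutation p = 0.0571) to 0.793 without the third vehicle score (exact permutation p = 0.771).

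Grin2d was listed in 2 places that are not the same element. The region chr7:45866351-45866650, 181 bp after the listed start at its centre, was higher with TAK-418 in wild types in the authors' list, with scores of 24, 53, 40 and 49 under vehicle and 54, 52, 129 and 60 under TAK-418. The means were 41.5 ± 12.9 and 73.8 ± 37 (SD, n = 4 each), a ratio of 1.78 (exact permutation p = 0.0571; limma log2 difference 0.77 ± 0.72 SE, adjusted p = 0.779). The groups overlapped by 1 unit, 53 against 52. Without the score of 52 the ratio was 1.95 with no overlap, as at 1.26% of the list's regions (exact permutation p = 0.029, the smallest such a test can give, and not adjusted), and without the score of 129 it was 1.33 (exact permutation p = 0.171). With the third place left out of both groups it was 1.32, and at that place the scores were 40 and 129.

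The region listed for Grin2d in heterozygote TAK-418 against wild type vehicle, chr7:45873001-45873800, lies 1807 bp outside Grin2d at the end of Kdelr1, which encodes a receptor that retrieves proteins to the endoplasmic reticulum. Peaks lay there in 6 libraries. Its scores were 99, 202, 255 and 166 in wild type vehicle and 29, 68, 297 and 83 in treated heterozygotes, with means of 180.5 ± 65.5 and 119.2 ± 120.7 (SD, n = 4 each; ratio 0.661, exact permutation p = 0.4; limma adjusted p = 0.613). The treated group held both the lowest and the highest score. With a single score left out, the ratio ran from 0.332 without the third treated score (exact permutation p = 0.0571) to 0.827 without the first treated score (exact permutation p = 0.686). With the third place left out of both groups it was 0.385, with no overlap (exact permutation p = 0.1), as at 36.1% of the list's regions.

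**Figure D4:**
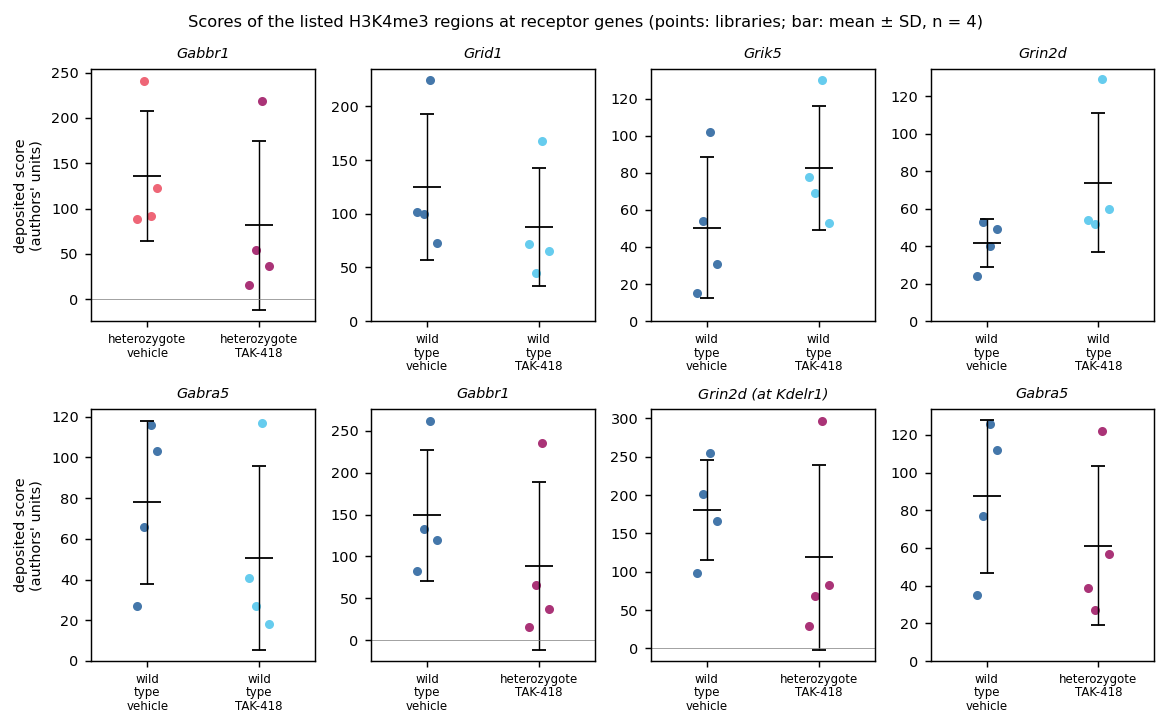
Deposited scores of the 8 regions of the authors' H3K4me3 lists at receptor genes, with 1 point per library, and the mean ± SD of each group of 4. The groups overlap in every panel, and the third of the 4 scores is the highest of the treated group in each.

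At Grik5, the region chr7:25072651-25073000 begins just upstream of the printed promoter, inside the peak at the listed start. With TAK-418 in wild types its scores were 78, 69, 130 and 53, against 15, 54, 102 and 31 with vehicle. The treated scores were higher on average, 82.5 ± 33.3 against 50.5 ± 37.9 (SD, n = 4 each; ratio 1.63, exact permutation p = 0.286; limma adjusted p = 0.779), and 3 of the 4 lay above 3 of the 4 vehicle scores. With a single score left out, the ratio ran from 1.32 without the third treated or the first vehicle score (exact permutation p = 0.514 in both) to 2.47 without the third vehicle score (exact permutation p = 0.0857). With the third place left out of both groups it was 2 (exact permutation p = 0.2).

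At Grid1, the region chr14:34820201-34820750, 198 bp inside the gene and within its wide peak, scored 102, 100, 225 and 73 with vehicle and 72, 45, 168 and 65 with TAK-418 in wild types. The means were 125 ± 68 and 87.5 ± 54.9 (SD, n = 4 each; ratio 0.7, exact permutation p = 0.457; limma adjusted p = 0.779). Again the third score was the highest of both groups. Without the third treated score the ratio was 0.485, with no overlap (exact permutation p = 0.0571), as at 14.2% of the list's regions, and without the third vehicle score it was 0.955. With the third place left out of both groups it was 0.662 with no overlap (exact permutation p = 0.1), as at 21.0% of the list's regions.

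The Gabra5 region lies at the shared end and not at the listed start. In chr7:57590651-57590950 the scores in wild types were 27, 66, 116 and 103 with vehicle and 41, 27, 117 and 18 with TAK-418, with means of 78 ± 40.1 and 50.8 ± 45.2 (SD, n = 4 each; ratio 0.651, exact permutation p = 0.429). The ranges were almost the same. In chr7:57590651-57591000 the scores were 35, 77, 126 and 112 in wild type vehicle and 39, 27, 122 and 57 in treated heterozygotes (ratio 0.7, exact permutation p = 0.4). With a single score left out, the ratio in wild types ran from 0.368 without the third treated score (exact permutation p = 0.143) to 0.791 without the fourth treated score (exact permutation p = 0.743). Against treated heterozygotes it ran from 0.469 without the third treated score (exact permutation p = 0.143) to 0.83 without the second treated score (exact permutation p = 0.714). With the third place left out of both groups the ratios were 0.439 and 0.549, and the groups still overlapped.

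H3K4me1 is a mark of enhancers and of promoter flanks. Its 15 lists were short, with 88 to 456 peaks that reached 0.151% to 0.475% of all genes, so few peaks at 34 genes could be seen. The only peak at a receptor gene was 1 of 314 bp with a fold of 4 inside Grik3, in heterozygote vehicle replicate 2. In the authors' lists for H3K4me1 the only receptor gene was Gria2, with the region chr3:80717351-80717750 inside the gene. It was listed as lower in heterozygotes than in wild types under vehicle, with scores of 591, 452, 463 and 215 in wild type and 607, 31, 108 and 416 in heterozygote (means 430.2 ± 156.8 and 290.5 ± 268.7, SD, n = 4 each; ratio 0.675, exact permutation p = 0.371). With TAK-418 in heterozygotes it was listed as higher, with 603, 31, 111 and 423 under vehicle and 652, 418, 393 and 280 under TAK-418 (ratio 1.49, exact permutation p = 0.4). Both comparisons use the same heterozygote vehicle libraries, in which 2 of 4 scores were low, and the groups overlapped in both. No library of either mark had a peak in that region. Of all genes, 0.845% and 0.58% had a region in these lists.

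Proteins that anchor, traffic or modulate the receptors were taken as a list of 36 auxiliary and scaffold genes. Of these, 34 to 36 had a peak in the long lists and 1 to 7 in the short ones, beside 58.9% to 64.3% and 0.356% to 9.98% of all genes. In the authors' list for TAK-418 in wild types, 9 of the 36 had a higher region, beside 6.84% of all genes, and 1, Shisa9, a lower one, beside 4.95%. The 9 were Cacng4, Cnih3, Grip1, Homer1, Homer2, Homer3, Kctd12, Kctd16 and Shank3, and limma called none (adjusted p = 0.779 to 0.804). Cacng4, an AMPA receptor partner of the TARP family, scored 62, 32, 158 and 72 with vehicle and 94, 145, 231 and 160 with TAK-418 (ratio 1.94, exact permutation p = 0.0857). The groups overlapped by 1 vehicle score, 158. Shank3, a scaffold of the postsynaptic density, scored 57, 72, 73 and 104 with vehicle and 122, 23, 256 and 124 with TAK-418 (ratio 1.72, exact permutation p = 0.343), so that 1 treated library was the lowest of the 8.

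The genotype comparison under vehicle held 2 of the 36 as lower, Homer1 and Kctd16, beside 7.9% of all genes. TAK-418 in heterozygotes held 4 as higher, Dlg1, Gphn, Homer1 and Kctd16, beside 2.85%, and 1 as lower, Kctd12, beside 2.39%. Treated heterozygotes against wild type vehicle held 3 as higher, Gphn, Homer1 and Kctd16, beside 1.09%. The Homer1 region present in all 4 lists lies 49 kb inside the gene, had scores from 888 to 8665, and had no H3K4me3 peak in any library. The Kctd16 region, over 51 kb inside that gene, had a peak in 14 of 16 libraries, also in short lists. Neither is at the start of its gene. The Gphn region found in both lists lay 9476 bp from the nearest end of that gene. A second Gphn region, in the list against wild type vehicle, lay 133476 bp from it. The Dlg1 region lay 458 bp from an end of its gene. A second Homer1 region lay 244 bp from an end of the gene, with a peak in 4 libraries. The strand of Homer1 was not looked up, so that end may be its start. The region scored 107, 168, 309 and 84 with vehicle and 178, 188, 361 and 123 with TAK-418 in wild types (ratio 1.27, exact permutation p = 0.486).

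Genes for the synthesis and transport of glutamate and GABA, 16 in the list, had a peak in 12 to 14 in the long lists, beside 58.9% to 64.3% of all genes. Among those listed were Glul and Slc6a11 as lower in heterozygotes than wild types under vehicle, Glul as lower with TAK-418 in heterozygotes, Slc38a1 and Slc38a2 as higher and Slc1a2 as lower with TAK-418 in wild types, and Glul and Slc1a2 as lower in treated heterozygotes than in wild type vehicle. The shares of all genes for these 5 lists and directions, in that order, were 7.9%, 2.39%, 6.84%, 4.95% and 10.1%. Slc6a11, a GABA transporter of astrocytes, scored 31, 36, 45 and 68 in wild type and 7, 36, 23 and 18 in heterozygote vehicle (ratio 0.467, exact permutation p = 0.0857), and the groups met at 36. Slc1a2, the main glutamate transporter of astrocytes, scored 56, 55, 128 and 179 in wild type vehicle and 16, 39, 119 and 4 in treated heterozygotes (ratio 0.426, exact permutation p = 0.171). Slc38a1, a glutamine carrier, scored 102, 38, 69 and 40 with vehicle and 58, 86, 191 and 194 with TAK-418 in wild types (ratio 2.12, exact permutation p = 0.143). None of these passed limma's test over its list (adjusted p = 0.575 to 0.779 for these 3), and the groups overlapped at each.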

How the data were processed

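The deposited H3K4me3 and H3K4me1 peak lists, 1 per library, have the layout of MACS2 broad peaks, per the file layout and the submitters' processing notes, which name mm10, MACS2, MACS and bedtools without version or role. Aligner, control library and peak threshold are not given in the sources used here. With every peak the authors deposited its fold enrichment, a ratio, and its −log10 p and −log10 q. The authors' deposited differential lists give a −log10 p and 1 score per library, with normalization and tool not stated, and their values were compared only within a list. The names of 4 differential lists do not give a mark, and these were read as H3K4me1. With no read counts, depth and the precision of a peak are unknown. The libraries of a mark came from different mice.

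Genes came from RefSeq (21887 protein-coding). Strand and starts came from RefSeq's promoter table, which has 24 of the 34 receptor genes. Regions were tested with limma 3.58.1 in R 4.3.3 on log2(score + 1), within the libraries of the list, and by exact permutation of mean scores; the regions had been chosen by the authors' p on the same libraries. Peak presence was tested by Fisher's exact test per gene with a peak in at least 2 and none in at least 2 libraries (Python 3.11.15, scipy 1.17.1). Both steps were tested on simulated data. Alternatives were the pseudocount, a minimum score, limma's trend, the window, the peak and region thresholds, the overlap, each library left out, and, added after the data were seen, the place most often highest left out or used as a batch term. The receptor genes and the other gene lists were chosen with earlier results of these data known. Named with their values were receptor genes with a listed region, with a peak in at least 5 libraries or in a short list, with the widest or narrowest mean peak of their class, or with no peak; others were added after their values were seen. Some results for the genes of synthesis and transport are not reported here.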

Additional observations from a re-analysis of the deposited data

Results flagged for a closer look

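Of 20 groups of 4 values checked for a value far from the others (gap to the nearest value over the range, above Dixon's critical value for 4 values), 5 held one; chance gives about 1 in 20. In each of the 4 groups it was the number of receptor genes with an H3K4me3 peak in the library with the long list: 32 in heterozygote TAK-418 (gap over range 1) and 31 in heterozygote vehicle (1), where the other 3 libraries had 0, and 32 in wild type TAK-418 (0.906) and 30 in wild type vehicle (0.933), where the others had 0 to 3. The fifth was the score of 129 at the Grin2d start among the 4 scores of wild type TAK-418 (0.896), beside 54, 52 and 60.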

How the results depend on the processing

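No receptor region changed direction when a single score was left out, when means were taken on the log2 scale with all scores, or when the place most often highest was left out of both groups. The number of regions that limma called at an adjusted p of 0.05 or less for heterozygote TAK-418 against wild type vehicle, 8, fell to 0 with a pseudocount of 10 to 0 with limma's trend, to 0 with the place most often highest left out of both groups and to 0 with that place as a batch term (both chosen after the data were seen), and ranged from 0 to 11 with 1 score left out; for TAK-418 in heterozygotes it ranged from 0 to 1, for TAK-418 in wild types from 0 to 3, and for the genotype comparison it was 0 throughout. The cause was not tested. Receptor genes listed as higher with TAK-418 in wild types went from 2 to 0 with gene ends only, since both regions lie inside the gene, and to 1 at an authors' −log10 p of 2 or more, where those listed as lower went from 2 to 0. The count of receptor regions in that comparison with an exact permutation p of 0.05 or less ranged from 0 to 1 with 1 score left out; the 1 was the Grin2d start, with a difference of 39.5 in mean score without the second treated score. The difference in the mean number of receptor genes with a peak rested on the long lists: with 1 library left out it ranged from -8.5 to 6.42 for heterozygote against wild type vehicle, from -7.75 to 8 and from -7.5 to 7.42 for TAK-418 in heterozygotes and wild types, and from -8.5 to 6.67 for treated heterozygotes against wild type vehicle. No paired analysis was possible because the replicate numbers were given in accession order and pair no mice, and the scores do not name their library; the place most often highest, which equals the replicate number of the long list in each group, was used as a batch only as above. Short lists and unknown depth limit what the absence of a peak shows.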
